A study of Mus musculus with 27 samples.

Results

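MHC class II molecules present peptides from endosomes to CD4 T cells, and 6 of their genes were followed through the mouse heart from mid-gestation to pressure overload. The genes were taken by symbol from the count table: H2-Aa, H2-Ab1, H2-Eb1, H2-DMa, Cd74 and Ciita, which are 6 of 57683 features listed and 6 of 20031 protein-coding genes. The class II molecule is a pair of chains, α and β, that is assembled in the endoplasmic reticulum around the invariant chain, Cd74. The invariant chain is cut down by proteases in the endosome, the DM heterodimer exchanges its last fragment for an antigenic peptide, and the loaded molecule moves to the cell surface. Dendritic cells, B cells and macrophages are the usual carriers. Transcription of the other genes of the set is switched on by Ciita, a co-activator that does not bind DNA itself and docks on factors at the shared X and Y boxes of class II promoters. Interferon gamma is the classical inducer of Ciita.

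Hearts came from C57BL/6J mice in 5 groups. Whole hearts were taken from 7 embryos labelled E13.5, whose sex the labels give as unknown. Only the ventricular apex was taken from the 20 adults, which were 6 unoperated mice at 6 weeks of age, 6 unoperated mice at 16 weeks, 4 sham-operated mice at 12 weeks, and 4 mice at 12 weeks after 4 weeks of TAC, transverse aortic constriction, in which the aorta is surgically narrowed and the left ventricle pumps against raised pressure. No animal carried a mutation, transgene or drug according to the labels. Polyadenylated RNA was sequenced as single-end reads without strand information, and the values are read counts per gene in bulk tissue, so more class II-bearing cells and more class II RNA per cell cannot be told apart. C57BL/6J mice have no functional H2-Ea, and no count was assigned to H2-Ea in any of the 27 libraries.

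Of the members, 4 lie together on chromosome 17 in the mouse build mm9: H2-DMa at 34272594-34276027, H2-Ab1 at 34400185-34406355, H2-Aa at 34419700-34424745 on the minus strand and H2-Eb1 at 34442843-34453144. Cd74 lies on chromosome 18 at 60963502-60972300 and Ciita on chromosome 16 at 10480237-10527657, both on the plus strand like the remaining 3. The counts of 5 members cover all of their annotated exons. For H2-Aa only 333 of its 1094 exonic bases are free of another feature, the noncoding transcript n266750, which itself took 0 to 3 counts per library. The level of H2-Aa is therefore uncertain, and its level per length is given on both lengths.

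Libraries held 7543375 to 12646039 counts in the embryos, 2092270 to 2682955 at 6 weeks, 2164604 to 2642307 at 16 weeks, 7958592 to 11561952 after sham surgery and 10411417 to 11846819 after TAC. The unoperated adults also carry a different base-quality encoding in their labels from the other 3 groups. Summed over 7 cardiomyocyte markers, the level was 89062 to 150680 CPM (normalised counts, scaled to library size) in the adults and 19278 to 26310 CPM in the embryos, so every library carried the transcripts of heart muscle. Y-linked counts went against the sex label in 8 of 20 adult libraries. They summed to 0 to 2 in 7 of 19 labelled male, of which 2 were at 6 weeks, 2 at 16 weeks, 2 sham and 1 TAC, and to 389 in the 1 labelled female, a TAC heart.

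Promoters are printed because the class II genes are known for one shared promoter architecture and because these genes moved together below. The 150 bases before the start are shown for H2-Aa (chr17:34287824-34287973, minus strand), H2-Eb1 (chr17:34305717-34305866, plus strand) and H2-DMb1 (chr17:34153041-34153190, plus strand), the β chain partner of H2-DMa, from RefSeq on GRCm38.p6. Capitals mark matches on the printed strand to GATTGG, the Y box core, to AACNGATG, an X box core, and to TGACGTCA, a cyclic AMP response element.
H2-Aa: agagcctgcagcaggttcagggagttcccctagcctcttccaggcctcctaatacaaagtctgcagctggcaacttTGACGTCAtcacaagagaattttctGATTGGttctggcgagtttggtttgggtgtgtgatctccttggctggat
H2-Eb1: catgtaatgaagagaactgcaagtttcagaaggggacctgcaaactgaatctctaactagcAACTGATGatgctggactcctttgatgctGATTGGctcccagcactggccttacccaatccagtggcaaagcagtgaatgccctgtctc
H2-DMb1: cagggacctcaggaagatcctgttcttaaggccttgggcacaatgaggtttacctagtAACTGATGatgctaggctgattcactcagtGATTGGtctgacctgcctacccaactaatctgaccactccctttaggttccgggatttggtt
The Y core began 49, 60 and 62 bases before the start in H2-Aa, H2-Eb1 and H2-DMb1. An X core stood 29 bases farther upstream in H2-Eb1 and 30 in H2-DMb1, counted from start to start, and in H2-Aa the response element stood 25 bases upstream of the Y core. Searched on both strands in 32851 promoter windows of 300 bases, the Y core matched 16.1%, the X core 2.32%, the response element 1.79%, and the Y core together with either of the others 0.642%. These motifs were chosen after the promoters were read, the matches are letters and not measured binding, and no printed match overlaps another. The window of H2-Eb1 holds a further Y core match on the opposite strand, left in lower case. For H2-DMa, 2 windows were listed, neither with the X core or the response element and 1 with a Y core, 199 bases before the start. The promoters of H2-Ab1, Cd74 and Ciita are named only.

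The classical chains, H2-Aa, H2-Ab1 and H2-Eb1, and the invariant chain Cd74 had 1 order of mean level in common: lowest in the embryo, higher in the unoperated adults, higher again after sham surgery and highest after TAC. Levels are given as CPM scaled over all 27 libraries by the trimmed mean of M values (TMM), with the SD. H2-Ab1, the β chain of the I-A molecule, stood at 1.63 ± 1.14 CPM in the embryos (n = 7), 18.8 ± 4.57 at 6 weeks (n = 6), 18.2 ± 4.58 at 16 weeks (n = 6), 97.5 ± 7.64 after sham surgery (n = 4) and 150 ± 17.2 after TAC (n = 4). The unoperated ages overlapped, and no library of any other neighbouring pair of groups did. Cd74 stood at 3.67 ± 3.45 CPM in the embryos, 103 ± 28.5 at 6 weeks, 83.0 ± 32.2 at 16 weeks, 434 ± 16.5 after sham surgery and 545 ± 68.3 after TAC, with overlap again only between the unoperated ages.

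H2-Eb1, the β chain of I-E, which lacks its α partner in this strain, followed the same order at 1.99 ± 0.71, 24.99 ± 9.86, 22.4 ± 6.93, 124 ± 7.996 and 185 ± 19.3 CPM in the embryo, 6-week, 16-week, sham and TAC groups. H2-Aa, the I-A α chain, had 0.18 ± 0.17, 4.67 ± 1.75, 3.68 ± 1.68, 16.5 ± 2.31 and 25.7 ± 4.79 CPM in those groups. In the embryos H2-Aa rested on 0 to 6 counts per library, and the library at 0 allows up to 0.258 CPM at 3 counts, for counting error only.

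The peptide editor and the transactivator overlapped more between groups. H2-DMa, the α chain of the DM heterodimer, was at 4.15 ± 1.19 CPM in the embryos, 3.42 ± 1.17 at 6 weeks and 3.15 ± 1.10 at 16 weeks, 3 groups that overlapped each other, and at 11.8 ± 1.71 after sham surgery and 16.1 ± 2.59 after TAC, which overlapped each other and stood above the rest. Ciita was at 2.63 ± 0.77, 4.26 ± 0.94 and 3.43 ± 1.07 CPM in the embryos and at 6 and 16 weeks, again overlapping, and at 10.1 ± 0.33 and 12.6 ± 1.26 CPM after sham surgery and TAC. In the embryo both genes thus overlapped the unoperated adults, and the chains and Cd74 did not. The unoperated adult libraries held only 3 to 11 counts of H2-DMa and 6 to 14 of Ciita each.

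**Figure D1:**
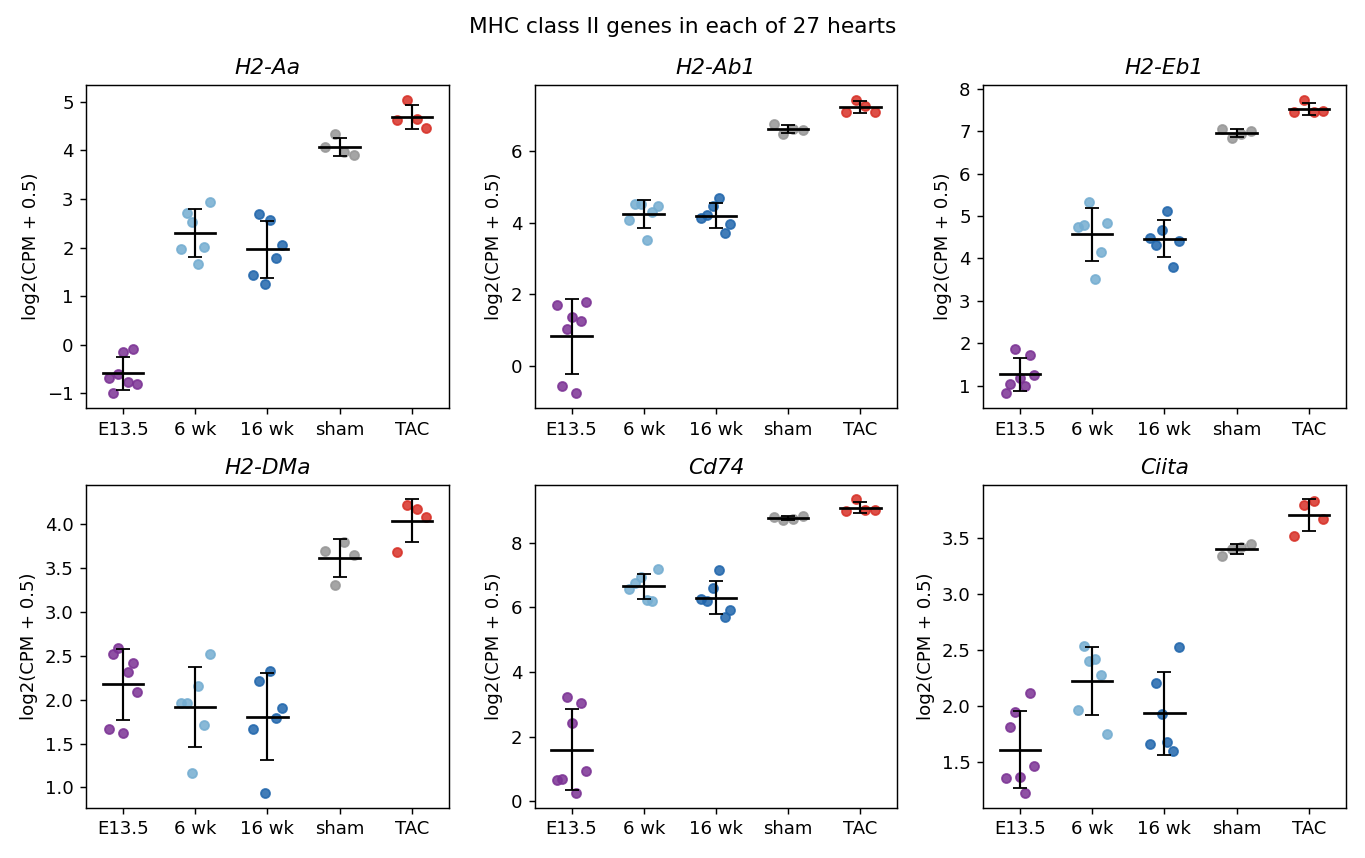
Level of each gene as log2(CPM + 0.5) in each of the 27 hearts, by group, with a separate vertical scale per gene; points are hearts, the long bar is the group mean and the whiskers its SD. H2-Aa, H2-Ab1, H2-Eb1 and Cd74 climb from the embryos through the unoperated adults and sham to TAC, while the embryos overlap the unoperated adults for H2-DMa and Ciita.

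Per length, Cd74 led and Ciita trailed in every adult group. In sham hearts Cd74 stood at 307 ± 11.7 CPM per kb of exon, H2-Eb1 at 105 ± 6.80, H2-Ab1 at 82.7 ± 6.48, H2-DMa at 11.1 ± 1.60 and Ciita at 1.86 ± 0.06 (n = 4). H2-Aa was at 15.05 ± 2.11 CPM per kb on all of its exons and at 49.4 ± 6.94 on its own bases, in either case below the β chains. In the embryos the order of the means changed: H2-DMa was highest at 3.88 ± 1.12 CPM per kb, followed by Cd74 at 2.60 ± 2.44, H2-Eb1 at 1.69 ± 0.60 and H2-Ab1 at 1.38 ± 0.96 (n = 7). In embryos 3, 4 and 6, however, Cd74 stood above H2-DMa, at 6.24, 3.43 and 5.47 beside 5.18, 2.41 and 4.53 CPM per kb.

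TAC was set against sham surgery to ask what 4 weeks of pressure overload did to these genes, and 4 of 6 rose: all 3 classical chains and Cd74. The expression filter left 14555 features, of which 19.6% were called higher and 18.4% lower at an adjusted p under 0.05 with edgeR's quasi-likelihood test. The median log2 fold change was 0.41 over the 6 members and 0.00 over all features tested. Log2 differences between group means on the 27-library scale exceeded the log2 fold changes of this fit by a median of 0.10. The fold changes below are therefore smaller than ratios of the CPM. In the comparisons that follow, this shift of the difference was 0.02 to 0.19.

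H2-Ab1 was at 107.7, 89.4, 97.4 and 95.3 CPM in the sham hearts and at 136.6, 173.0, 153.9 and 137.1 CPM in the TAC hearts. Every TAC heart was above every sham heart, and the fold change was 1.44 (log2 0.52 ± 0.08 SE, adjusted p = 1.84e-04 with edgeR). H2-Eb1 was at 131.3, 113.4, 121.9 and 128.7 CPM after sham surgery and 174.6, 213.6, 173.9 and 177.0 CPM after TAC. These groups did not overlap either, with a fold change of 1.39 (log2 0.48 ± 0.08, adjusted p = 2.04e-04 with edgeR). H2-Aa rose 1.46-fold (log2 0.54 ± 0.13, adjusted p = 0.00459 with edgeR), from 16.4, 19.7, 15.2 and 14.5 CPM to 24.4, 32.6, 24.5 and 21.4 CPM, again without overlap.

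Cd74 rose less, 1.17-fold (log2 0.23 ± 0.08, adjusted p = 0.0292 with edgeR), from 445.3, 418.8, 421.1 and 451.1 CPM to 507.3, 647.8, 514.1 and 512.6 CPM. The groups did not overlap, but the call rested on few libraries: without TAC heart 2 the log2 fold change was 0.15 (adjusted p = 0.0782), and without sham heart 1, 2 or 3 the adjusted p was 0.0517, 0.0615 or 0.0608. It was also lost under upper-quartile scaling (0.0568), without the libraries that go against their sex label (0.0571) and in a fit of all 27 libraries (0.623), where H2-Ab1 missed the threshold too (0.0623). All of these p-values are from edgeR.

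H2-DMa was at 12.4, 9.40, 13.4 and 12.1 CPM after sham surgery and 12.4, 18.1, 17.5 and 16.4 CPM after TAC, and TAC heart 1 lay within the sham range. Its log2 fold change of 0.35 ± 0.15 did not pass (adjusted p = 0.0695 with edgeR), and it passed without TAC heart 1 (0.46, adjusted p = 0.0227) and without the expression filter (0.40, adjusted p = 0.0213). Ciita was at 9.65, 10.1, 10.2 and 10.4 CPM after sham surgery and 10.97, 13.4, 13.7 and 12.2 CPM after TAC. Its log2 fold change was 0.22 ± 0.13 (adjusted p = 0.190 with edgeR), and the groups overlapped on the scale of this fit. In all, 4 of 6 members did not overlap between the groups, higher in TAC, beside 18.7% of all features tested.

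Count ratios within a library, where scaling drops out, were compared between the members. The count ratio of H2-Ab1 to Cd74 was 0.242, 0.214, 0.231 and 0.211 in the sham hearts and 0.269, 0.267, 0.299 and 0.268 in the TAC hearts. The ratio of H2-Eb1 to Cd74 was 0.271 to 0.295 after sham surgery and 0.330 to 0.345 after TAC. Neither pair of ranges overlapped, each with an exact two-sided permutation p = 0.0286, the smallest that 4 against 4 allows. The ratio of H2-Ab1 to Ciita did not overlap either, at 8.86 to 11.16 and 11.19 to 12.92, with the same p. After Benjamini-Hochberg adjustment over the 15 pairs of members examined, p was 0.143 for all 3, so none passed. The ratio of Cd74 to Ciita had medians of 42.4 after sham surgery and 44.1 after TAC. The ratio of H2-Aa to Cd74 overlapped, at 0.032 to 0.047 and 0.042 to 0.050 (exact permutation p = 0.0571, adjusted 0.171). The ratio of H2-Ab1 to H2-Eb1, 2 β chains encoded near each other, had medians of 0.794 after sham surgery and 0.796 after TAC.

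**Figure D2:**
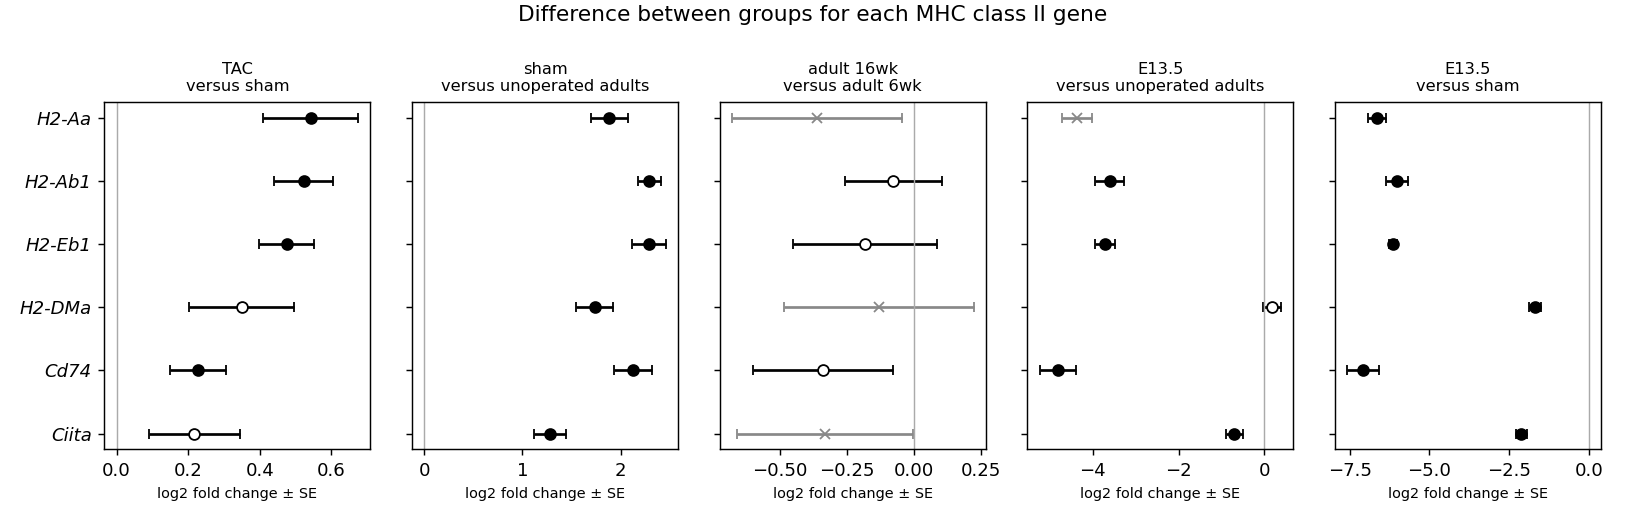
Log2 fold change with its SE for each gene in 5 comparisons, each panel on its own horizontal scale; filled circles passed the adjusted p threshold of 0.05 in edgeR's quasi-likelihood test, open circles did not, and grey crosses are genes under the expression filter, shown from a fit without it. All genes lie to the right of 0 for TAC against sham and for sham against unoperated adults, and all lie far to the left for E13.5 against sham.

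Other genes of the pathway were counted over whole lists, and those named within a list are mostly its called genes with the largest changes. H2-DMb1, the DM β chain, rose with TAC (log2 0.60 ± 0.18, adjusted p = 0.0150 with edgeR), from 3.65 to 5.27 CPM in sham hearts to 5.51 to 7.92 CPM in TAC hearts. H2-Ob, the β chain of the DM inhibitor DO, was tested and did not pass (0.57 ± 0.49, adjusted p = 0.379), while H2-Oa, H2-DMb2 and H2-Eb2 had at most 6, 14 and 1 counts in a TAC library and were under the filter. Among 9 endosomal proteases and turnover genes, 5 rose and 0 fell: Ctss, cathepsin S, which makes the late cuts in the invariant chain, by 0.77 ± 0.14, the thiol reductase Ifi30 by 0.51 ± 0.16, the legumain gene Lgmn by 0.32 ± 0.11 and Ctsd, cathepsin D, by 0.24 ± 0.07 were among them (median over the list 0.17).

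The factors that act upstream did not rise as a list. Of 8 promoter factors tested, 1 rose (Nfya, a Y box subunit, 0.26 ± 0.09) and 3 fell (Creb1, -0.45 ± 0.10, Nfyc, -0.33 ± 0.10, and the acetyltransferase Kat2b, -0.26 ± 0.08), and the X box factor Rfx5 had -0.11 ± 0.18 (adjusted p = 0.659 with edgeR). Of 9 genes of the interferon gamma pathway and inducers of Ciita, 1 rose, the myeloid transcription factor Spi1 (1.01 ± 0.21), and 2 fell, Ifngr2 (-0.35 ± 0.07) and Jak1 (-0.30 ± 0.07). Ifng itself had 1 count in all 27 libraries. Of 10 MHC class I genes tested, 5 rose, among them H2-K1 (0.60 ± 0.13), H2-D1 (0.51 ± 0.10) and the immunoproteasome subunits Psmb8 (0.54 ± 0.10) and Psmb9 (0.53 ± 0.15), and 1 fell, the peptidase Erap1 (-0.53 ± 0.11). The light chain B2m had -0.01 ± 0.08 (adjusted p = 0.952), and Nlrc5 and Tap1, whose exons are almost wholly shared with other features, could not be measured. Of 4 costimulation genes tested, 1 rose, the adhesion molecule Icam1 (0.50 ± 0.15).

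Markers of leukocytes, macrophages and B cells rose in the same comparison, all or in part, and those of dendritic cells mostly did not. All 4 leukocyte markers tested rose (Coro1a 1.29 ± 0.16, Cd52 1.25 ± 0.26, Ptprc, the pan-leukocyte antigen CD45, 0.66 ± 0.16, and Laptm5 0.47 ± 0.12), and the summed level of the list was 71.8 to 92.8 CPM in sham and 124 to 178 CPM in TAC hearts. Of 13 macrophage markers, 7 rose and 0 fell, among them the fractalkine receptor Cx3cr1 (1.36 ± 0.19), Fcgr1 (1.23 ± 0.34), Cd14 (0.69 ± 0.13), the complement gene C1qb (0.66 ± 0.09) and the growth factor receptor Csf1r (0.47 ± 0.09), with sums of 573 to 641 CPM and 822 to 1147 CPM. The remaining 6 macrophage markers did not pass, the lowest at -0.55. Of 4 B cell markers tested, 3 rose (Cd22 1.41 ± 0.40, Blk 1.11 ± 0.19 and Cd79a 1.04 ± 0.30), with sums of 7.46 to 13.2 CPM and 22.0 to 29.1 CPM.

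Dendritic cell sums overlapped, at 47.4 to 60.7 CPM and 57.7 to 61.7 CPM. The integrin Itgax was the 1 of 4 dendritic cell markers tested that rose (0.998 ± 0.33). The median over those 4 was 0.02 and the lowest value -0.40. Cd209a was at 0 counts in both groups and Batf3 at 0 in sham. Monocyte sums were 9.28 to 15.2 CPM and 17.1 to 38.1 CPM, with 0 of 2 markers past edgeR's test and 2 at an unadjusted p under 0.05, and T and NK cell sums were 2.33 to 5.96 CPM and 4.73 to 6.87 CPM, with 0 of 1 past it, also unadjusted, and Cd3e at 3 to 13 and 3 to 9 counts per library. Of 6 endothelial markers 1 rose and 1 fell, of 6 fibroblast markers 3 rose, led by Col1a1 (1.90 ± 0.22), and of 7 cardiomyocyte markers 2 rose and 2 fell. The part of these cells in the rise of the class II genes was not tested.

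**Figure D3:**
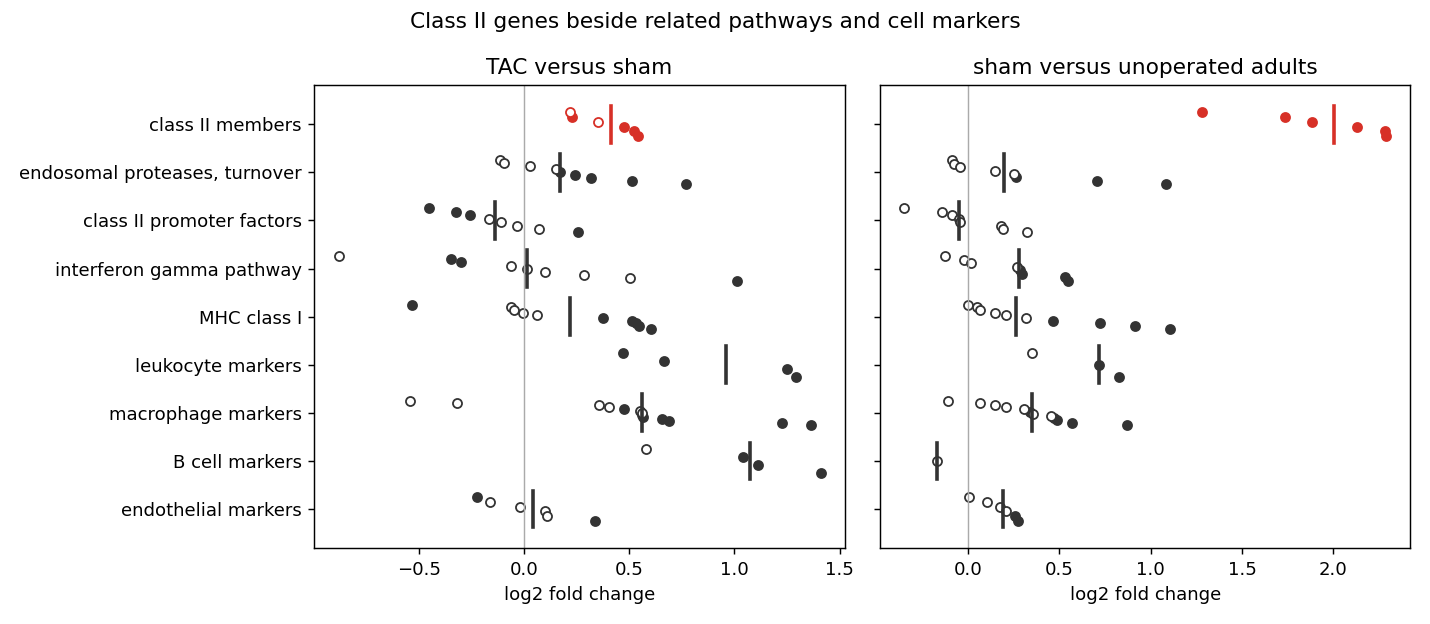
Log2 fold change of each tested gene by list, for TAC against sham and for sham against unoperated adults; filled circles passed an adjusted p of 0.05 in edgeR, open circles did not, and the vertical bar is the list's median. After TAC the class II genes (red) lie between 0.22 and 0.54, within the range of the macrophage markers, with Ciita, Cd74 and H2-DMa below every leukocyte marker, whereas for sham against unoperated adults they lie between 1.28 and 2.29, to the right of every gene of the other lists drawn.

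Sham hearts were also set against the unoperated adults, a comparison added after the levels had been seen and sharing its sham hearts with the one above. All 6 members were higher in sham hearts than in the mean of the unoperated ages, and none overlapped, where 15.2% of 11171 features tested were called higher and 4.99% did not overlap in that direction. H2-DMa reached the filter's level in too few unoperated hearts and passed it only through the sham hearts. Its call and lack of overlap were thus largely fixed by the filter, and without it the log2 fold change was 1.83 ± 0.20. H2-Ab1 was 4.90-fold higher (log2 2.29 ± 0.11, adjusted p = 2.88e-14 with edgeR), at 11.01 to 25.3 CPM in the 12 unoperated hearts and 89.4 to 107.7 CPM in the 4 sham hearts. Only 33 of the features tested had a larger log2 fold change.

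H2-Eb1 was 4.88-fold higher (log2 2.29 ± 0.17), Cd74 4.37-fold (2.13 ± 0.19), H2-Aa 3.69-fold (1.88 ± 0.19), H2-DMa 3.33-fold (1.74 ± 0.19) and Ciita 2.43-fold (1.28 ± 0.16), with adjusted p from 1.91e-08 to 1.82e-06 with edgeR. The whole set thus lay in 1 direction, the transactivator included, with the limit given above for H2-DMa. The median log2 fold change was 2.01 over the 6 members and -0.02 over all features tested. With the sham libraries thinned to 2092270 counts, the lowest unoperated total, the values were 1.33 for Ciita to 2.35 for H2-Eb1, and against either unoperated age alone all 6 passed. These groups differ at once in surgery, age, sequencing depth and base-quality encoding, which cannot be told apart.

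H2-DMb1 was under the expression filter here, at 0.40 to 2.71 CPM in the unoperated and 3.65 to 5.27 CPM in the sham hearts without overlap, and a fit without the filter gave a log2 fold change of 2.11 ± 0.31 (adjusted p = 1.20e-09 with edgeR). Ctss was higher by 1.08 ± 0.15, H2-K1 by 1.11 ± 0.23, H2-D1 by 0.92 ± 0.12 and Ptprc by 0.83 ± 0.21 on the log2 scale, all past the threshold. Of 12 macrophage markers tested, 5 were higher and 0 lower with a median of 0.35, of 3 leukocyte markers 2 were higher, and of 8 promoter factors 0 were called by edgeR, with 2 at an unadjusted p under 0.05. Of 8 interferon gamma pathway genes 4 were higher, among them Irf8 (0.53 ± 0.18) and Irf1 (0.30 ± 0.11). Summed leukocyte markers were 40.1 to 54.0 CPM in the unoperated and 71.8 to 92.8 CPM in the sham hearts, and macrophage markers 367 to 546 CPM and 573 to 641 CPM. Dendritic cell sums, at 40.1 to 64.0 CPM and 47.4 to 60.7 CPM, and B cell sums, at 4.91 to 17.9 CPM and 7.46 to 13.2 CPM, overlapped. The part of these cells in the difference was not tested.

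In unoperated adults no member passed the test for age. Between 16 and 6 weeks, 2.51% of 10394 features were called, and 0 of the 3 members that passed the filter: H2-Ab1 (log2 -0.08 ± 0.18, adjusted p = 0.883), H2-Eb1 (-0.18 ± 0.27, adjusted p = 0.789) and Cd74 (-0.34 ± 0.26, adjusted p = 0.567), all with edgeR. None had an unadjusted p under 0.05, and DESeq2 and limma-voom called 0 as well. H2-Ab1 was at 11.01, 20.2 and 22.7 CPM (lowest, median and highest) at 6 weeks and 12.7, 17.4 and 25.3 CPM at 16 weeks. Cd74 was at 73.2, 101 and 146 CPM at 6 weeks and 52.0, 74.7 and 141 CPM at 16 weeks, so the ages overlapped over most of their range. H2-Aa, H2-DMa and Ciita had too few counts to pass, and a fit without the filter gave -0.36 ± 0.32, -0.13 ± 0.35 and -0.33 ± 0.33, none of them called. At 3 to 16 counts per library, a difference of that size was not detectable for these 3 genes.

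The embryo had low levels of the chains and of Cd74. Against the mean of the unoperated adults, 4 of the 5 members tested were lower at E13.5, where 39.7% of 12766 features were called lower. Cd74 was lower by 4.82 ± 0.42 on the log2 scale, H2-Eb1 by 3.72 ± 0.24 and H2-Ab1 by 3.60 ± 0.34, with adjusted p from 1.14e-12 to 8.61e-09 with edgeR. These 3 did not overlap between the groups, beside 26.5% of features that did not overlap in that direction. They reached the filter's level in too few embryos and passed it through the adults. Their lower calls and lack of overlap were thus largely fixed by the filter. Without it the log2 fold changes were -4.64 ± 0.43 for Cd74, -3.54 ± 0.15 for H2-Eb1 and -3.42 ± 0.35 for H2-Ab1. Ciita was lower by 0.70 ± 0.20 (adjusted p = 0.00190 with edgeR) with overlapping groups, and against the 16-week hearts alone it missed the threshold (log2 -0.57, adjusted p = 0.0575). H2-DMa was not past the threshold, at 0.18 ± 0.21 (adjusted p = 0.430 with edgeR), and H2-Aa, under the filter, had -4.37 ± 0.34 without it.

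Against the sham hearts, which are like the embryos in depth and encoding, all 6 were lower and none overlapped, where 35.6% of 18677 features were called lower and 30.3% did not overlap in that direction. H2-Aa, at 0 to 6 counts per embryonic library, passed the filter here only through the sham hearts. Its call and its lack of overlap were thus largely fixed by the filter. The log2 fold changes were -7.08 ± 0.50 for Cd74, -6.64 ± 0.28 for H2-Aa, -6.14 ± 0.14 for H2-Eb1, -6.02 ± 0.34 for H2-Ab1, -2.12 ± 0.18 for Ciita and -1.69 ± 0.19 for H2-DMa, with adjusted p from 1.61e-17 to 4.11e-07 with edgeR. Both comparisons use the same embryos, and in both stage goes with whole heart against apex. Against the unoperated adults stage also goes with depth and base-quality encoding, and against sham it goes with surgery. These cannot be told apart. The sham hearts were themselves above the unoperated adults for all 6 members. With the change of control, H2-DMa went from 0.18 to -1.69 and Ciita from -0.70 to -2.12.

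The embryonic hearts differed among themselves. Cd74 was at 8.82, 7.73 and 4.85 CPM in embryos 3, 6 and 4 and at 0.70 to 1.41 CPM in the remaining 4. H2-Ab1 had 1 and 2 counts in embryos 5 and 2 and 19 to 45 counts in the others, and the order of the embryos was not the same for both genes. The 3 embryos high in Cd74 were also the highest in Ptprc, at 4.49, 4.19 and 3.26 CPM beside 0.95 to 2.12 CPM in the others. Their summed leukocyte markers were 64.3, 54.6 and 43.2 CPM beside 33.4 to 37.9 CPM, their macrophage markers 266, 236 and 220 CPM beside 203 to 218 CPM, and their T and NK cell markers 10.7, 10.05 and 7.22 CPM beside 2.71 to 6.17 CPM. Their monocyte markers summed to 8.50, 9.04 and 6.82 CPM beside 2.54 to 3.88 CPM. Dendritic cell and B cell markers did not set these embryos apart. The dendritic cell sums were 22.7, 25.1 and 20.8 CPM beside 21.4 to 30.9 CPM. The B cell sums were 3.21, 3.61 and 3.36 CPM beside 2.58 to 4.30 CPM. Embryos 3 and 6 were also the only 2 with more than 10 Y-linked counts. The part of these differences in the level of Cd74 was not tested. The median count ratio of H2-DMa to Cd74 was 2.44 in the embryos and 0.03 to 0.04 in the adult groups, and that of Cd74 to Ciita was 0.63 in the embryos and 23.0 to 44.1 in the adults. Among the embryos the first ratio ran from 0.53 to 6.38 and the second from 0.37 to 2.62. H2-DMa and Ciita were at 2.57 to 5.53 CPM and 1.84 to 3.83 CPM in the embryos, a narrower spread than that of Cd74.

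Related genes in the embryo went several ways against unoperated adults, where 44.1% of all features tested were called higher and 39.7% lower. H2-DMb1 had 1 to 5 counts per embryonic library and was under the filter in that comparison. Against sham it was lower by 4.20 ± 0.28, where it passed the filter only through the sham hearts. Of 10 class I genes 8 were lower and 2 higher, led by the transporter Tap2 (-4.28 ± 0.14), Psmb9 (-3.94 ± 0.33), Psmb8 (-3.06 ± 0.29) and H2-K1 (-2.61 ± 0.22), and of 8 interferon gamma pathway genes 7 were lower, among them Ifngr2 (-1.92 ± 0.07) and Irf1 (-1.74 ± 0.10). Of 8 promoter factors 5 were higher, among them Nfya (1.29 ± 0.07), Creb1 (0.74 ± 0.09), Nfyb (0.72 ± 0.14) and Rfx5 (0.53 ± 0.12), and 1, Kat2b (-1.69 ± 0.09), was lower. Rfx5 shares 41.2% of its exonic bases with other features.

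Of 7 protease and turnover genes 4 were lower, among them Ctsd (-1.94 ± 0.05), Ctsb (-0.96 ± 0.06) and Ctss (-0.31 ± 0.14), and 2 were higher, Ifi30 (0.34 ± 0.13) among them. Macrophage markers were lower for 10 of 12 and higher for 2, with Cd163 at -7.27 ± 0.33, C1qa at -2.37 ± 0.10 and Csf1r at -0.55 ± 0.11, and their sum was 203 to 266 CPM in the embryos and 367 to 546 CPM in the unoperated adults. Both dendritic cell markers tested were lower (Mgl2, -6.74 ± 0.40, and Zbtb46, -0.89 ± 0.10), while Ptprc had -0.64 ± 0.30 (adjusted p = 0.0523 with edgeR). Dendritic cell sums were 20.8 to 30.9 CPM and 40.1 to 64.0 CPM, and B cell sums 2.58 to 4.30 CPM and 4.91 to 17.9 CPM. The part of these cells in the embryonic difference was not tested.

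From heart to heart within an adult group, the chains and Cd74 tended to deviate from their means together, H2-Aa least closely. The mean log2 deviation of H2-Aa, H2-Ab1, H2-Eb1 and Cd74 from their group means was taken in the 20 adult hearts. It ranged from -0.70 in heart 4 at 6 weeks to 0.65 in heart 4 at 16 weeks. Each gene's own deviation had a Pearson r with this mean of 0.91 for H2-Ab1 and H2-Eb1, 0.90 for Cd74 and 0.74 for H2-Aa, which are part of the mean, and 0.14 for H2-DMa and -0.11 for Ciita, which are not. Within the 8 operated hearts, where they had 67 to 162 counts per library, these 2 values were 0.38 and 0.42, and within the 12 unoperated hearts 0.12 and -0.14. These are descriptions over 20 libraries that share depth within groups, and with 3 to 14 counts per unoperated library the last 2 genes had little precision.

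**Figure D4:**
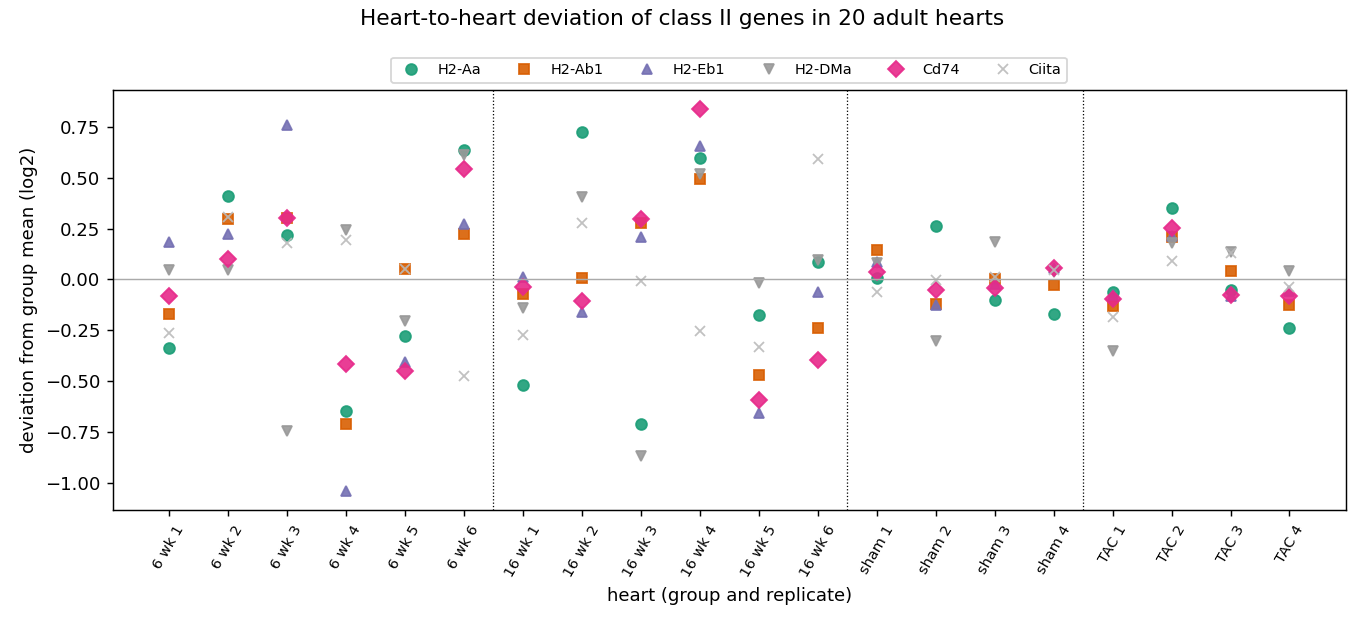
Deviation of each gene's log2(CPM + 0.5) from its group mean in each of the 20 adult hearts, with dotted lines between groups. The chains and Cd74 lie low together in heart 4 at 6 weeks and heart 5 at 16 weeks and high together in heart 4 at 16 weeks. H2-Aa lies apart at -0.71 in heart 3 at 16 weeks, where H2-Ab1, H2-Eb1 and Cd74 are at 0.21 to 0.30. It also lies apart at 0.73 in heart 2 at 16 weeks, where they are at -0.16 to 0.01. The sham and TAC hearts spread less than the unoperated hearts.

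Among other protein-coding genes with a mean of at least 1 CPM, those whose deviations were most like the mean of these 4 genes included Cpsf6 (Pearson r = 0.86), Pecr (0.84), Gpn3 (0.81), Cntnap1 (0.80), Foxj2 (0.80), Rab11fip2 (0.79) and Myh14 (0.79), from 12229 candidates over 20 hearts. Of these, Rab11fip2 had r = -0.46, Myh14 0.03 and Cntnap1 0.22 within the 8 operated hearts, so their likeness came mainly from the unoperated hearts. Pecr, Foxj2, Gpn3 and Cpsf6 had 0.51 to 0.94 within the operated hearts. Over the levels in all 27 hearts the most alike were Slco2b1 (0.98), Atp5j2, Bag1, Ifitm3, Capns1 and the complement genes C1qb and C1qa (0.97 each), and Cox7c (0.97), where the difference between embryo and adult is shared by every point. H2-DMa reached 0.61 and Ciita 0.85 on that measure.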

How the data were processed

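Polyadenylated RNA was sequenced from 27 mouse hearts. The values the authors deposited are raw counts per feature. The submitters' processing notes list Bowtie, TopHat 1.3.0, HTSeq, DESeq and edgeR and the builds mm9 and NCBIM37, without roles. How reads on overlapping genes were counted is not given in the sources used here. The total line was left out. For each comparison only its groups were fitted: features needed a minimum count of 10 and total of 15 in edgeR's filter, TMM set the scale, and edgeR 4.0.16's quasi-likelihood test (R 4.3.3, limma 3.58.1) gave p-values, Benjamini-Hochberg adjusted over all features tested, called under 0.05. An SE is the size of the log2 fold change divided by √F. DESeq2 1.42.0, limma-voom, other scalings and filters, 1 joint fit, a replicate block and leaving out libraries were the alternatives. The test was checked on simulated data. The 6 genes and all lists were chosen with earlier results of these data known. Named genes are the members, up to 4 called genes per list with the largest change and a mean of at least 1 CPM, fixed pathway genes, and the 8 most alike; a few others were named after their values were seen. A few items that this rule names are not reported here. Libraries were taken as separate hearts, so p-values measure the spread between them. March1, March8, Spi1 and H2-D1 were matched by Ensembl ID. Figures used Python 3.11.15 and matplotlib 3.10.9.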

Additional observations from a re-analysis of the deposited data

Results flagged for a closer look

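In a search of 30 sets, each 1 gene in 1 group, 2 sets held a heart far from the rest, and about 1 in 20 is flagged by chance. Both were TAC heart 2, the highest of its group at 213.6 CPM of H2-Eb1, where the next was 177.0 CPM, and at 647.8 CPM of Cd74, where the next was 514.1 CPM. The same heart was not the highest in summed macrophage markers, at 859 CPM beside 822 to 1147 CPM in its group, or in summed leukocyte markers, at 137 CPM beside 124 to 178 CPM. It was the highest of its group in the summed levels of the endosomal proteases (4469 CPM, others 3984 to 4095 CPM), the MHC class I genes (1892 CPM, others 1606 to 1791 CPM), the remaining class II genes (11.4 CPM, others 8.02 to 10.6 CPM), the interferon gamma pathway (760 CPM, others 673 to 736 CPM) and the cardiomyocyte markers (150680 CPM, others 121153 to 135028 CPM), and not in the other lists examined.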

How the results depend on the processing

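Of 660 alternative values for the members, 648 kept the direction and side of the threshold of the value given, 10 lost the call, 2 gained it and 0 reversed. In TAC against sham, the number of members called was 2 in a fit of all 27 libraries and 3 to 5 when 1 heart was left out. The replicate numbers do not pair the hearts (correlations of same-numbered TAC and sham deviations from -0.10 to 0.06, with 1 of 4 best with its own number). With the replicate as a block, 3 members passed and Cd74 did not (log2 0.22, adjusted p = 0.0530 with edgeR). For age, features called were 261, and 508 without the filter, 420 in the fit of all libraries, 138 without the libraries against their sex label and 107 to 364 with 1 heart left out, with 0 members called throughout. For E13.5 against unoperated adults, 10695 features were called, and 18408 without the filter. For sham against unoperated adults, 3558 features were called, and 2336 without the libraries against their sex label, where all 6 members still passed. The cause of these moves was not tested. The depth of the unoperated libraries, at 3 to 16 counts of H2-Aa, H2-DMa and Ciita, limits what age could show.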
